A study of Mus musculus with 4 samples.

Results

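Short intergenic transcribed regions were followed in hearts under pressure overload. The array names part of its probes by a chromosome range and a letter, F or R, instead of a gene. The regions described here are the ranges whose end minus start was under 5000 bases and was not a multiple of 25. The rule uses length and name alone, though it was set with earlier results of these data known. There were 1463 such ranges with 3778 probes, which is 31.8% of the 4607 ranges and 23.3% of the 16181 range probes on the array. F was read as the plus strand and R as the minus strand of mm9, the build of the array annotation, since the files do not explain the letters. The files pair no range with a gene and hold no probe sequence.

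The study compared hearts of male mice after transverse aortic constriction (TAC), which narrows the aorta and overloads the left ventricle, with hearts after a sham operation. Hearts were taken at 2 weeks or 8 weeks after surgery. The labels give an age of 10 weeks for both groups at 2 weeks and of 16 weeks for both groups at 8 weeks, which does not match the age at surgery given in the study's methods. The labels give no strain or allele. Each of the 4 conditions was 1 array, and per the study's methods each array held RNA mixed from 4 to 6 mice. The spread between mice was therefore not measured, no test was possible at a single time, and every ratio below compares 1 pool with 1 pool. In whole-heart RNA, fewer cells of a type and less RNA per cell cannot be told apart.

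Long intergenic noncoding RNAs (lincRNAs) are RNA polymerase II transcripts from the stretches between protein-coding genes. Many are spliced and polyadenylated like mRNAs, are present at low levels, and are restricted to a few tissues. Some act in the nucleus on the genes around them or on chromatin and binding proteins, others in the cytoplasm, and for most no function is known. In the heart, some lincRNAs change with overload or injury along with the fetal gene program, the set of genes for natriuretic peptides and fetal contractile proteins that rises in hypertrophied cardiomyocytes.

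All 4 arrays shared a slide and a scan, and no spot was saturated. A level is log2 of a probe's processed signal minus that of the 75th percentile of the array (non-control probes), which was a signal of 206.0 to 248.5. The hypertrophy genes followed the labels. The summed linear level of Nppa, Nppb, Myh7, Acta1 and Ankrd1 was 457 and 436 on the sham arrays at 2 and 8 weeks, and 1955 and 3138 on the TAC arrays. All 4 cardiomyocyte markers were measured on all 4 arrays, with a summed level of 4641 to 5601. The skeletal muscle markers Myh4, Myh1 and Actn3 and the white fat markers Adipoq and Lep were not well above background on any array. The erythroid markers summed to 290.3 to 362.9, the lymphocyte markers to 4.75 to 6.15 and the brown fat markers, of which Ucp1 was not detected, to 35.5 to 47.6. The macrophage markers Csf1r, Adgre1 and Lyz2 (3 of 4 had a probe, all 3 measured) summed to 29.8 and 30.5 on the sham arrays and to 36.9 and 37.9 on the TAC arrays at 2 and 8 weeks. The atrial markers Sln, Myl4 and Myl7 summed to 3.21 on sham and 3.23 on TAC at 2 weeks, and to 4.14 on sham and 2.76 on TAC at 8 weeks. Of these, only Myl4 was measured on all 4 arrays.

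The short ranges lay on 20 chromosomes, 740 of them on F and 723 on R. Their length was between 61 and 4970 bases, with a median of 653 and quartiles of 447 and 1736. None of the 1463 was present on both strands. By contrast, 339 of the 1050 intervals of 5 kb or more and 728 of the 1027 intervals with a length multiple of 25 carried probes for both strands. A short range had 3 probes in 1065 cases, 2 in 185 and 1 in 213. A short range can lie inside a wider range of another class. This was so on the same strand for 663 of them and on the opposite strand for 676, so that many short ranges had another set of probes around them and a set for the other strand.

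About 2 in 5 probes of the short ranges were detected in the heart. The fraction of the 3778 probes well above background was 37.7% on the sham array and 42.2% on the TAC array at 2 weeks, and 39.5% and 40.5% at 8 weeks. The TAC array at 2 weeks had the highest share in every class of probe, so this order was not particular to the short ranges. On all 4 arrays 1288 probes (34.1%) were detected, on none 1990 (52.7%), and on some 500 (13.2%). The share detected on all 4 arrays was 36.1% for ranges of 5 kb or more, 35.7% for ranges with a length multiple of 25, and 59.6% for probes not named by a range. A probe is called measured below where it was well above background on all arrays of the comparison.

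**Figure D1:**
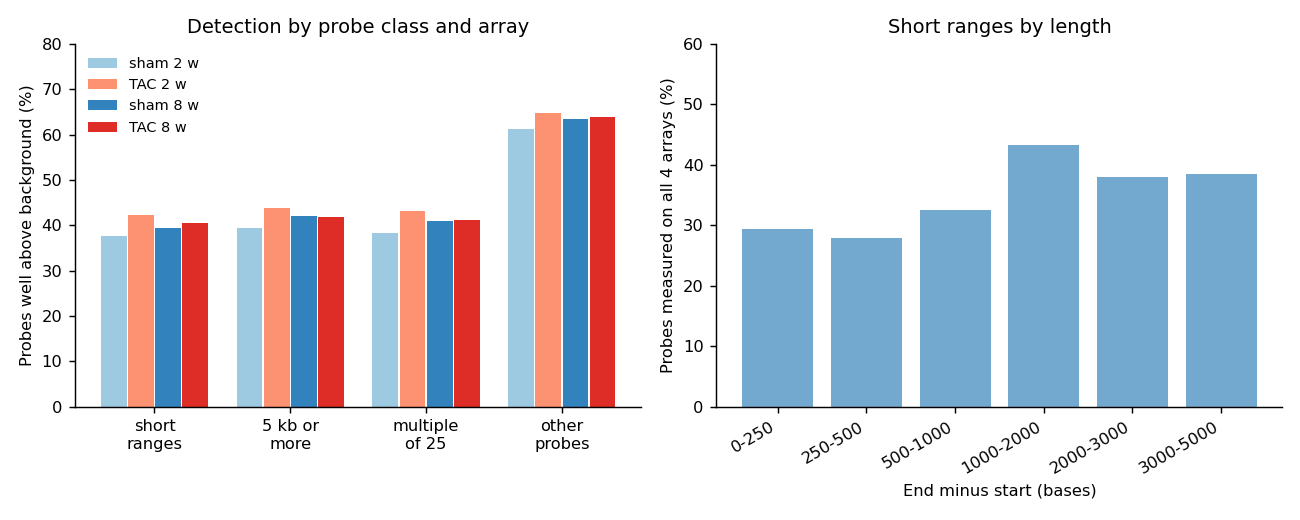
Left, the percentage of probes well above background for each probe class on each of the 4 arrays (blue, sham, and red, TAC, darker at 8 weeks), and right, the percentage of short-range probes measured on all 4 arrays by length of the range. Short ranges sat at 37.7% to 42.2%, beside the other range classes and below the probes not named by a range, and the bars on the right were lowest from 250 to 500 bases (27.9%) and highest from 1000 to 2000 bases (43.2%).

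Detection differed with length. It was 29.4% up to 250 bases, 27.9% from 250 to 500, 32.4% from 500 to 1000, 43.2% from 1000 to 2000, 37.9% from 2000 to 3000 and 38.5% from 3000 to 5000 bases. The lowest share on a chromosome was 23.6%, on chromosome 13, and the highest was 52.2%, on chromosome 19. Detection in a short range went with detection around it. Where all probes of a short range were measured (166 ranges inside wider ranges on both strands), 60.03% of the wider probes on the same strand were measured and 38.0% of those on the opposite strand. Where none was measured (258 ranges), these shares were 37.8% and 30.6%. Neighbouring short ranges less than 10000 bases apart on the same strand behaved alike only in part. The second range had a measured probe in 56.3% of pairs when the first had one and in 41.0% when it had none.

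Probes of the same range often differed in whether they were detected. At least 1 probe was measured in 780 ranges (53.3%), and no probe was detected on any array in 451. Of the 1250 ranges with 2 or more probes, 195 (15.6%) were measured by all of their probes, 516 (41.3%) by some and 539 (43.1%) by none. In ranges of 3 probes, 454 had no measured probe, 298 had 1, 152 had 2 and 161 had 3. Where 2 or more probes were measured, the highest and lowest signal of the range differed by a median of 2.21-fold, and by over 4-fold in 92 of 347 ranges (26.5%). A probe's signal depends on its own sequence as well as on the RNA, so these gaps cannot be read as gaps in abundance. Their source was not tested.

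Ratios of TAC to sham also differed between probes of a range. The level, over measured probes of the same range, had an SD of 1.28 on the log2 scale beside 2.09 over all such probes. Over ranges with 2 or more probes detected on both arrays of a pair, the log2 ratio had an SD within a range of 0.32 at 2 weeks (368 ranges) and 0.30 at 8 weeks (381 ranges), beside an SD over the same probes of 0.42 and 0.41. All measured probes of a range pointed the same way in 229 ranges (62.2%) at 2 weeks and in 250 (65.6%) at 8 weeks. In the ratio of the sham array at 8 weeks to that at 2 weeks, which holds no overload, they did so in 186 of 355 ranges (52.4%), with an SD within a range of 0.28. The probes of a range differed by more than 2-fold in their ratio in 13 ranges at 2 weeks, 17 at 8 weeks and 10 between the sham pools. For scale, the log2 ratio of single spots of the same probe had an SD of 0.17 over measured probes. Over measured probes with a level below -2 it was 0.32. Both come from 399 probes that are spotted repeatedly, none of which is a short-range probe.

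The short ranges with the highest signals hardly moved with TAC. Mean levels over the probes and arrays reached 8.54 for chr4:33364774-33364898_R (1 probe), 8.38 for chr19:5801802-5802597_R, 7.77 for chr17:17481706-17482457_R, 6.43 for chr17:39982023-39983277_F and 6.28 for chr19:5798135-5800557_R. In these 5 ranges the mean log2 ratio was between -0.13 and -0.06 at 2 weeks and between -0.20 and 0.03 at 8 weeks. Over the 10 ranges with the highest signals, the mean log2 ratio at 2 weeks went from -0.23 for chr16:43623175-43624069_F to 0.10 for chr8:122994515-122994743_R. The bulk of the class was likewise near no change, with a median log2 ratio of -0.03 at 2 weeks and -0.10 at 8 weeks, where the median of all measured probes on the array was -0.02 and -0.04. At 8 weeks 34.2% of the short-range probes had a ratio above 0, as did 33.9% of the probes of ranges of 5 kb or more and 43.6% of all probes.

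Probes with a TAC to sham ratio over 2 were called up if the TAC array detected them, and probes with a ratio under the inverse were called down if the sham array detected them. At 2 weeks 91 short-range probes in 83 ranges were up (2.41%, against 1.89% of all probes) and 52 in 50 ranges were down (1.38%, against 1%). At 8 weeks 63 in 58 ranges were up (1.67%, against 1.89%) and 81 in 78 ranges were down (2.14%, against 1.77%). Similar numbers of probes differed between the sham pools. Between them 74 probes were over 2-fold higher at 8 weeks (1.96%, against 1.49%) and 53 were higher at 2 weeks (1.40%, against 0.853%). The split of calls at 8 weeks also depended on the scaling, with 63 up and 81 down by the 75th percentile, 75 and 71 by quantile normalization and 80 and 62 without normalization between arrays. Without it, the median of all measured probes moved from -0.04 to 0.13 at 8 weeks.

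Most of these calls rested on a probe that was dim on 1 of the pair. Only 16 of the 91 rises at 2 weeks and 18 of the 63 at 8 weeks were detected on both arrays (1.18% of 1359 and 1.30% of 1383 probes, against 0.769% and 1.42% of all probes). The same held for the falls, with 16 of 52 at 2 weeks and 22 of 81 at 8 weeks (1.18% and 1.59%, against 0.646% and 1%). Between the sham pools, 11 probes were higher and 15 lower at 8 weeks on this count (0.824% and 1.12%, against 0.394% and 0.344%). For the probes dim on the other array the ratio is a lower bound. It was over 2-fold in 16 of 75 such rises and 28 of 36 such falls at 2 weeks, and in 20 of 45 and 31 of 59 at 8 weeks.

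The other probes of a range were a check on each call. Of the 16 rises at 2 weeks measured on both arrays, 9 had another measured probe in their range, which moved up in all 9 cases and by over 2-fold in 7. Of the 18 at 8 weeks, 16 had one, with the others all up in 11 cases and over 2-fold up in 8. Of the 16 falls at 2 weeks, 11 had another measured probe, the others were all down in 8 cases and none fell over 2-fold. Of the 22 falls at 8 weeks, 16 had one, with the others all down in 13 cases and over 2-fold down in 4. Several called probes could share a range and then served as each other's check. With 1 value per range, the other probes had a median log2 ratio of 1.04 beside a called median of 1.31 for rises at 2 weeks (5 ranges) and of 0.52 beside 1.24 at 8 weeks (11 ranges). For falls it was -0.23 beside -1.23 at 2 weeks (11 ranges) and -0.41 beside -1.10 at 8 weeks (14 ranges).

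**Figure D2:**
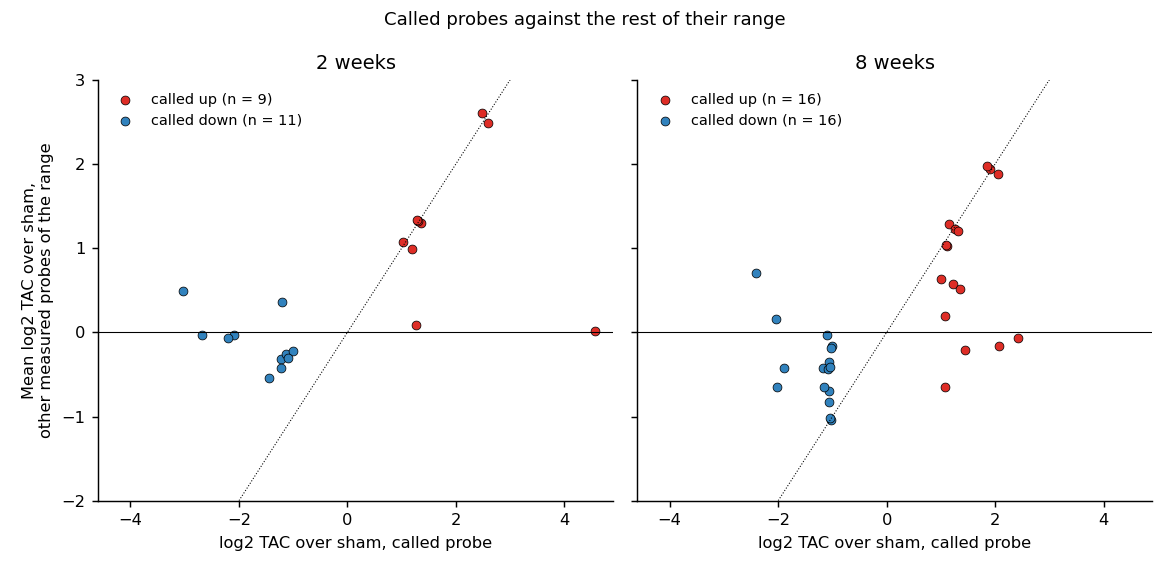
Each point is a short-range probe called up (red) or down (blue) and detected on both arrays, with its log2 ratio of TAC to sham on the horizontal axis and the mean log2 ratio of the other measured probes of its range on the vertical axis, at 2 weeks (left) and 8 weeks (right). Called rises at 2 weeks lay near the dotted line of equal ratios except for 2 points near 0, and called falls at 2 weeks lay near 0. Each rise near the line at 2 weeks had another called probe in its range.

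The sham array of the other time gave a second baseline, chosen as a check after the data were seen. Of the 16 measured rises at 2 weeks, 7 were also over 2-fold above the sham array at 8 weeks. Of the 18 at 8 weeks, 13 were also over 2-fold above the sham array at 2 weeks. Against the other sham array, 1 of the 16 falls at 2 weeks and 8 of the 22 falls at 8 weeks were still over 2-fold. The check was not alike for rises and falls. A rise kept the TAC array that called it, while a fall lost the sham array that called it. The shares of rises and falls are therefore not compared. By the labels the sham arrays also differed in age. In 8 of the 16 falls at 2 weeks the sham array was over 2-fold above each of the other 3 arrays. No such counts over all probes stand beside those of this check, so they are not read as particular to the short ranges.

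Rises at both times were few. In all, 10 probes in 8 ranges were up at both times (0.265% of the probes, against 0.372% of all probes). Of these, 5 were measured on all 4 arrays (0.388%, against 0.362%), and they lay in 3 ranges on chromosomes 2, 17 and 8. As ranges, 2 had all measured probes over 1.5-fold up at both times, and no range had them down at both times, out of 350 ranges with 2 or more such probes in both comparisons. A fit of operation and time over all 4 arrays (limma, added after the data were seen) tests TAC over both times with 1 residual degree of freedom. Over the 29262 probes measured on all 4 arrays it called none up (0%) and none down (0%) at an adjusted p of 0.05, and hence none of the 1288 short-range probes. At an unadjusted p of 0.05 in the limma fit, 77 of these were up and 140 down. No such count over all 29262 probes stands beside them, so they are not read as particular to the short ranges. The smallest adjusted p of a short-range probe in the limma fit was 0.19, and with 1 residual degree of freedom the absence of calls does not show that a range did not change.

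Among ranges with 2 or more measured probes, the largest rise over both times was that of chr2:77152807-77155092_R, 2285 bases long, whose 3 probes moved together. The first had levels of 0.14 on sham and 1.5 on TAC at 2 weeks, and of 0.26 on sham and 2.17 on TAC at 8 weeks. The second went from -1.13 to 0.17 and from -0.87 to 0.97, and the third from -1.13 to 0.15 and from -1.08 to 0.96. Both TAC arrays were above both sham arrays in all 3 probes. The mean log2 ratio was 1.31 ± 0.03 at 2 weeks and 1.93 ± 0.10 at 8 weeks (SD over 3 probes), or 2.49-fold and 3.82-fold. The length of this range equals that of Gm13943, a GRCm38 lincRNA gene on the plus strand of chromosome 2, but length and chromosome are all that was matched. With R read as the minus strand, the strands of the range and of Gm13943 differ. The rise is therefore not given as one of Gm13943.

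On chr17:32044823-32045974_R the rise was as large at 2 weeks as at 8 weeks. The levels of its 3 probes went from 0.36 to 1.56, from 1.73 to 2.76 and from 0.40 to 1.36 at 2 weeks, sham to TAC. At 8 weeks they went from 0.68 to 1.80, from 1.77 to 2.74 and from 0.40 to 1.49. The mean log2 ratio was 1.06 ± 0.12 and 1.06 ± 0.08 (SD over 3 probes), about 2.09-fold and 2.08-fold, and no TAC level was below a sham level of the same probe.

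A further 3 ranges rose with all their measured probes past 1.5-fold at 8 weeks and to a lesser extent at 2 weeks. In chr3:146645022-146646977_F the probes had levels of -0.14, -0.18 and -0.38 on sham and 0.63, 0.39 and 0.36 on TAC at 2 weeks, and of 0.07, -0.20 and -0.45 on sham and 1.22, 1.07 and 0.86 on TAC at 8 weeks. Its mean log2 ratio was 0.69 ± 0.11 and 1.24 ± 0.08 (SD over 3 probes). In chr1:183832694-183834125_R it was 0.47 ± 0.01 and 0.89 ± 0.04, with TAC levels of 0.44 to 1.45 at 2 weeks and 0.88 to 2.02 at 8 weeks. Here the sham levels were -0.03 to 0.98 and 0.03 to 1.14. In chr1:92177032-92180487_F, singled out after its values were seen, the mean was 0.56 ± 0.11 and 0.84 ± 0.07, but its sham level at 8 weeks differed from that at 2 weeks by -0.37 on average. The highest mean ratios of the class also took in ranges whose probes agreed less well over time. The 2 measured probes of chr3:95502970-95503399_R had 0.84 and 0.80 at 2 weeks but 0.48 and 0.17 at 8 weeks (means of 0.28 and 0.06 with normexp), and those of chrX:45814752-45816313_R had -0.10 and -0.14 at 2 weeks and 0.52 and 1.34 at 8 weeks. The macrophage markers also had higher sums on both TAC arrays (above), and their part in these rises was not tested.

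**Figure D3:**
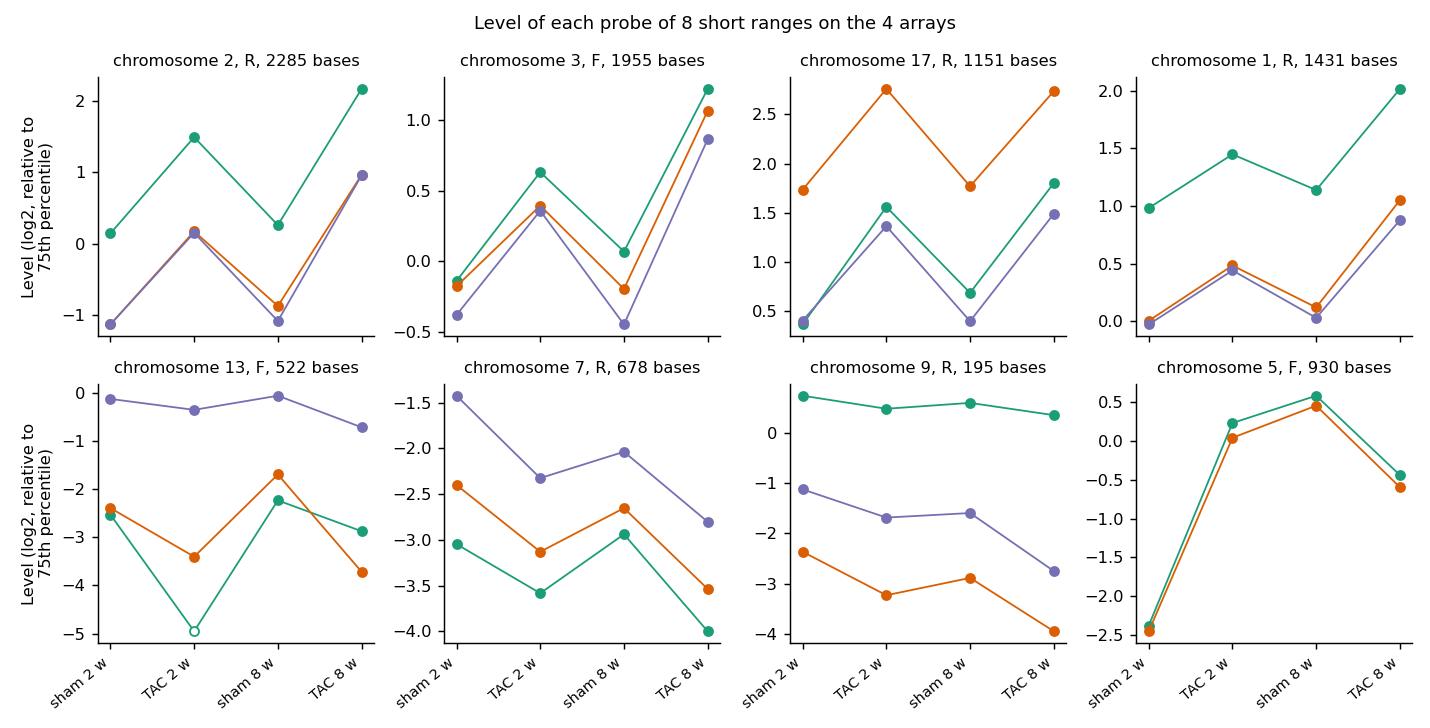
Level of each probe (log2 signal relative to the array's 75th percentile) on the 4 arrays for 8 short ranges, titled by chromosome, strand letter and length, where a line joins the values of 1 probe and an open circle is a probe not well above background. The 4 upper ranges were higher on both TAC arrays, the ranges on chromosomes 13, 7 and 9 were lower on the TAC arrays, and the chromosome 5 range followed neither.

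The wider ranges around these regions gave values for each strand. Around the chromosome 3 range, all 4 probes of chr3:146629425-146649125_F rose at 8 weeks, by log2 ratios of 0.86 to 1.26. On the opposite strand, 4 of 5 probes were not detected on any array and the fifth had a log2 ratio of -0.56. Around the chromosome 17 range, both same-strand probes of chr17:32035750-32056000_R had log2 ratios of 0.96 to 1.01 at 8 weeks, and the measured opposite-strand probe had 0.42. Around the chromosome 2 range, the 5 same-strand probes of chr2:77146893-77155643_R had log2 ratios of 0.55 to 2.56, and 1 measured probe on the opposite strand had 0.71. Around the chromosome 1 range of 1431 bases, measured probes of both strands had ratios above 0 at 8 weeks, as around the chromosome 17 and chromosome 2 ranges. There, 3 same-strand probes of the wider range had log2 ratios of 0.95 to 1.19, and 3 measured opposite-strand probes had 0.22 to 1.58.

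**Figure D4:**
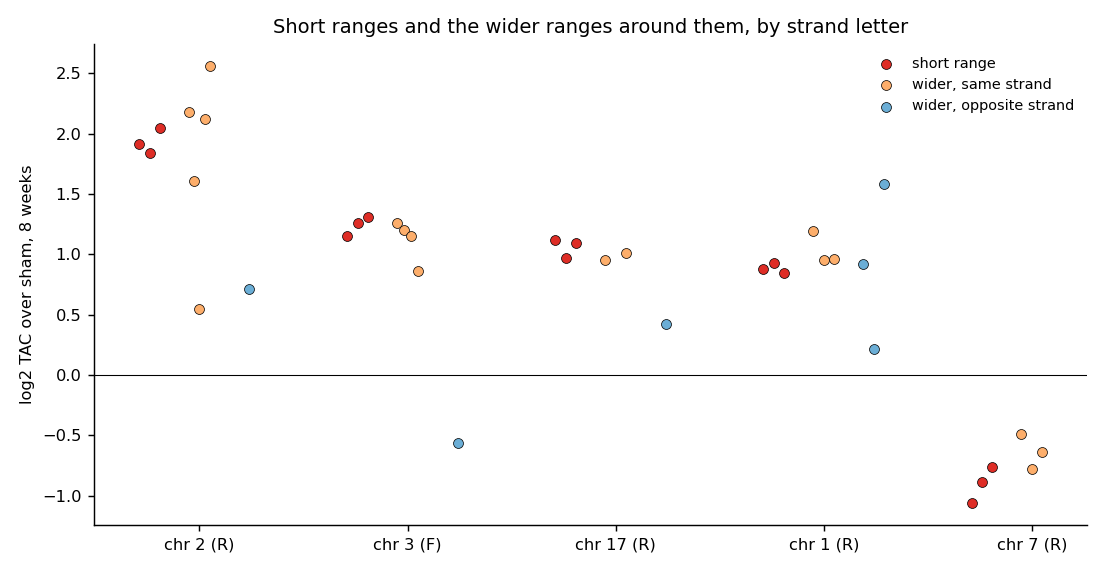
Log2 ratio of TAC to sham at 8 weeks for each probe measured on all 4 arrays, in 5 short ranges named by chromosome and strand letter (red) and in the wider range around each, on the same strand (orange) and the opposite strand (blue). Same-strand probes moved in the direction of the short range in all 5 shown. Measured opposite-strand probes had ratios above 0 for chromosomes 2, 17 and 1. The opposite strand of chromosome 3 had -0.56 and that of chromosome 7 had no measured probe. Not shown is chr8:49866197-49866841_R, which fell while its 2 measured same-strand probes had -0.04 and 0.75.

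Whole ranges were compared where 2 or more of their probes were measured on both arrays. At 2 weeks 4 of 368 ranges had all measured probes up over 1.5-fold and none had them down. At 8 weeks 5 of 381 ranges had them up and 5 had them down. Between the sham pools 1 of 355 had them up and none had them down. The other range classes were not counted in this way, so these counts are not set against the array as a whole. At a lower threshold of 1.25-fold, 17 ranges were up and 21 down at 2 weeks, 18 up and 31 down at 8 weeks, and 3 up and 8 down between the sham pools.

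All 3 probes of chr7:67119535-67120213_R fell at both times. Their levels went from -3.05 to -3.58, from -2.40 to -3.13 and from -1.43 to -2.33 at 2 weeks, sham to TAC, and from -2.94 to -4.0, from -2.65 to -3.54 and from -2.04 to -2.80 at 8 weeks. Both TAC levels lay below both sham levels in all 3 probes. The mean log2 ratio was -0.72 ± 0.18 and -0.90 ± 0.15 (SD over 3 probes), or 1.65-fold and 1.87-fold lower. With normexp background correction these means were -0.24 and -0.41, under 1.5-fold. In 2 wider ranges around it, the 3 measured same-strand probes had log2 ratios of -0.25 to -0.17 at 2 weeks and -0.77 to -0.49 at 8 weeks, and none of the 9 opposite-strand probes was detected on any array.

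In chr13:24615451-24615973_F all 3 probes were lower on TAC at 8 weeks, but by unequal amounts. Their levels went from -2.23 to -2.87, from -1.69 to -3.71 and from -0.06 to -0.71, a mean log2 ratio of -1.11 ± 0.79 (SD over 3 probes). The second of these was the only short-range probe that was over 2-fold down at both times and measured on all 4 arrays (0.0776% of 1288 probes, against 0.13% of all probes). It went from -2.39 to -3.40 at 2 weeks. The first probe went from -2.53 to a level not well above background at 2 weeks, a fall of at least 3.58-fold, and the third from -0.12 to -0.35.

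A pair of neighbouring ranges on chromosome 9, 1786 bases apart and singled out after their values were seen, were also lower on TAC. The 3 probes of chr9:40268246-40268441_R had log2 ratios of -0.86, -0.56 and -0.26 at 2 weeks and -1.06, -1.15 and -0.24 at 8 weeks. The measured probe of chr9:40266027-40266460_R went from -2.16 to -2.77 at 2 weeks and from -2.54 to -3.82 at 8 weeks, sham to TAC. Smaller concordant falls at 8 weeks, also singled out after their values were seen, were those of chr8:49866197-49866841_R, with a mean log2 ratio of -0.72 ± 0.05 over 2 probes, and of chrX:93157194-93160542_R, with -0.66 ± 0.02 over 2 probes. On TAC at 8 weeks the lower measured probe of each lay at -4.26 and -4.03. The lowest level well above background on that array was -4.42. At 2 weeks the mean log2 ratios of these ranges were -0.12 and -0.26. In the wider range around the chromosome 8 range, the 2 measured same-strand probes had log2 ratios of -0.04 and 0.75 at 8 weeks. Around the chromosome X range, no same-strand probe was detected on any array. The 2 measured opposite-strand probes there had -0.75 and -0.57 at 8 weeks. The atrial markers also had a lower sum on the TAC array at 8 weeks (above). Of these markers only Myl4 was measured on all 4 arrays, with a log2 ratio of -0.52 at 8 weeks. The part of the atrial markers in the falls of these short ranges was not tested.

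**Figure D5:**
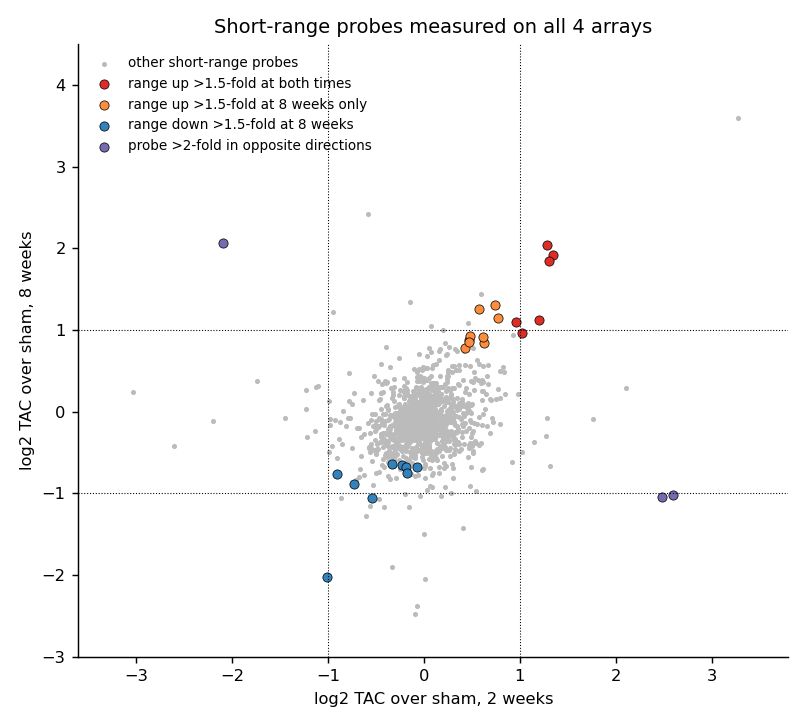
Log2 ratio of TAC to sham at 2 weeks (horizontal) and 8 weeks (vertical) for the 1288 short-range probes measured on all 4 arrays, with dotted lines at 2-fold and in colour the probes of ranges that moved over 1.5-fold in all measured probes, or probes over 2-fold in opposite directions at the 2 times. Most probes lay near 0, the red points of the chromosome 2 and 17 ranges sat at the upper right, and few points sat at the lower left.

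In all, 3 probes measured on all 4 arrays moved over 2-fold in opposite directions at the 2 times. No such count over all probes stands beside them, so they are not read as particular to the short ranges. Both probes of chr5:14943275-14944205_F moved in opposite directions together. Their levels were -2.37 and -2.45 on sham and 0.23 and 0.04 on TAC at 2 weeks, and 0.58 and 0.45 on sham and -0.44 and -0.60 on TAC at 8 weeks. The sham array at 2 weeks was thus the low one, the other 3 arrays lay between -0.60 and 0.58, and the sham pools differed by 2.92 on average. With normexp their mean log2 ratio was 1.46 in place of 2.54 at 2 weeks. A further short range in the same wider region, chr5:15033568-15033987_F, singled out after its values were seen, had a probe not well above background on sham at 2 weeks and at -2.01 on TAC, and at -1.40 on sham and -2.49 on TAC at 8 weeks. Its only probe measured on all 4 arrays did not follow this pattern, with log2 ratios of 0.22 and -0.43 and a sham level of -2.32 at 2 weeks and -2.20 at 8 weeks. The third probe lay in chr5:29779847-29784383_F, with levels of -0.81, -2.90, -3.02 and -0.95 on sham and TAC at 2 weeks and sham and TAC at 8 weeks. The other 2 probes of that range had log2 ratios between -0.24 and 0.05.

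Single probes also stood apart from their own range. The single largest rise measured on all 4 arrays was 1 probe of chr8:124697835-124699013_F, with levels of -3.23 and -3.05 on the sham arrays and 0.04 and 0.54 on the TAC arrays at 2 and 8 weeks, or 9.69-fold and 12.05-fold. With normexp its log2 ratios were 1.77 and 2.14 in place of 3.28 and 3.59. The other 2 probes of this range were not detected on any array and give no ratio. In chr11:79551860-79552221_R, 1 probe had a log2 ratio of 4.57 at 2 weeks and another 0.02. In chr11:120097758-120098581_F, the 2 probes had -3.03 and 0.50 at 2 weeks. In chr7:134643558-134644056_F, 1 probe had 2.42 at 8 weeks and the other 2 had 0.03 and -0.17. In these last 3 ranges the measured probes did not agree on a change.

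In most ranges with a low mean at 2 weeks, 1 probe was high on the sham array alone. The largest measured fall, of probe A_30_P01025764 in chr9:82524061-82526378_R (singled out after its values were seen), had levels of 0.01 on sham and -4.24 on TAC at 2 weeks and of -4.09 on sham and -4.40 on TAC at 8 weeks, an 18.95-fold fall at 2 weeks. In chr14:61321789-61325711_F the 2 probes had log2 ratios of -2.69 and -0.03 at 2 weeks, and in chr4:148119487-148121143_R the 2 measured ones had -2.19 and -0.06. The probes differed less in chr15:43363046-43364763_F, with -1.45 and -0.54, and in chr1:73004154-73007481_F, with -1.23 and -0.42. With normexp the means of these last 2 ranges were -0.28 and -0.24. At 8 weeks, chr15:102032892-102033838_R had -1.90 and -0.42, and chr17:47016870-47017498_F had -2.41 and 0.71.

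The remaining rises and falls at both times were dim on sham or on TAC. A probe of chr6:134879009-134880130_F was at least 1.53-fold higher on TAC at 2 weeks and at least 4.16-fold at 8 weeks, and a probe of chr8:40257009-40258777_F at least 1.37-fold and at least 3.06-fold. The other 2 probes of each range were not detected. On chr1:23340097-23340552_F a probe fell by at least 2.08-fold (2 weeks) and at least 1.83-fold (8 weeks), and on chr2:75484041-75484815_R by at least 1.77-fold and at least 1.73-fold. Their range partners were likewise not detected on any array. The other 3 probes up at both times had bounds of at most 2.07-fold or none.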

How the data were processed

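Total RNA of 4 pools was hybridized to 1-colour Agilent arrays (SurePrint G3 Mouse GE 8x60K), 1 array per condition. The authors deposited scanner files with 1 processed intensity for each spot, background-corrected and without normalization between arrays. The file headers name Feature Extraction 10.7.3.1 and the submitters' processing notes name 9.1. The deposited series table holds the same intensity times a constant per array (medians 101.2, 106.3, 103.7 and 97.2 for sham and TAC at 2 and 8 weeks).

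Log2 signals were taken minus each array's 75th percentile, outlier spots were dropped and spots of a probe averaged. Detection was the scanner's flag for well above background. Folds against a dim probe are bounds, set against its own signal or the array's lowest signal well above background, whichever was higher. The number of arrays limits the precision, and no test was possible at a single time. An added limma fit (operation and time, Benjamini-Hochberg adjustment) tested TAC over both times. Alternatives were quantile, median and no normalization, normexp (limma), the deposited table, other flags and fold thresholds of 1.5 and 3. Counting was tested on simulated data. Computations used Python 3.11.15, pandas 2.3.3, numpy 2.4.6, R 4.3.3 and limma 3.58.1.

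Named ranges were the 10 with the highest signals, probes moved at both times, the 5 highest and 5 lowest mean ratios and the 5 widest spreads at each time, and opposite movers. Others are marked as singled out. Members and lists were chosen with earlier results of these data known. Marker lists were chosen as hypertrophy, cardiomyocyte, atrial, erythroid, brown fat, white fat, skeletal muscle, macrophage and lymphocyte genes. No short range had a partner on the other strand, and the files give no gene positions, so neighbouring genes were not described.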

Additional observations from a re-analysis of the deposited data

Results flagged for a closer look

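In 3 probes the effect of TAC differed between the times, with a rise at either time and a fall at the other. Each effect is 1 pool against 1 pool, and the difference was not tested. No count of such probes over the whole array stands beside the 3. A_30_P01019442 and A_30_P01029005 of chr5:14943275-14944205_F had a log2 ratio of TAC to sham lower at 8 weeks than at 2 weeks by -3.62 and -3.53. A_30_P01019871 of chr5:29779847-29784383_F had one that was higher at 8 weeks by 4.16.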

How the results depend on the processing

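Sham and TAC pair only by time. A limma fit with time as a block, added after seeing the data, called 0 up and 0 down in place of 10 and 3 at both times. No paired analysis was possible at a single time because each condition was 1 array. The counts below stand in the order up and down at 2 weeks, up and down at 8 weeks, up and down at both times, and higher at 8 and at 2 weeks between the sham pools, and are 91, 52, 63, 81, 10, 3, 74 and 53 as reported. With normexp, whose offset of 50 shrinks the ratios of dim probes, they were 11, 7, 12, 12, 3, 0, 10 and 9. With detection on both arrays they were 16, 16, 18, 22, 5, 1, 11 and 15. Without the detection flag, and equally with the flag for positive and significant signal, they were 231, 164, 138, 296, 20, 30, 219 and 167, so that the share of rises at 8 weeks went from 43.8% to 31.8%. At 1.5-fold they were 178, 124, 130, 194, 25, 22, 125 and 123, and at 3-fold 51, 31, 32, 43, 2, 0, 50 and 34. Counting only probes also past 2-fold against the other sham pool, chosen after seeing the data, left 44, 7, 45 and 12 at the single times and 6 up at both. Rises and falls do not compare under this setting, since only falls lose the array that called them. Quantile, median and no normalization, the deposited table and kept outlier spots left each of these counts within 1.5 times. Detection on all 4 arrays was 53.2% by the positive and significant flag. The SD of the log2 ratio within ranges was 0.15 at both times and between the sham pools with normexp, and 0.67, 0.68 and 0.67 without the flag. No mean ratio of a named range over 2-fold changed its direction. With the median over probes, 2 wide ranges did so at 8 weeks, chr5:111602486-111603075_F from -0.58 to 0.14 and chr5:29779847-29784383_F from 0.58 to -0.10. The balance of rises and falls also turned, from 63 and 81 to 80 and 62 at 8 weeks without normalization and to 75 and 71 by quantile normalization, and from 10 and 3 to 20 and 30 at both times without the flag. Of 66 mean ratios of named ranges, 66 stayed within the larger of spot noise and the SD over their probes under quantile normalization and with the median over probes, and 48 under normexp, which gave 1.02 and 1.55 for the chromosome 2 range, 0.49 and 1.04 for that on chromosome 3, 0.36 and 0.76 for that of 1431 bases on chromosome 1, and -0.24 and -0.41 for that on chromosome 7. With 1 pool per condition, no count separates TAC from the difference between pools, and for dim probes the signal over background is the limit.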
